A study of Mus musculus with 31 samples.

Results

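The mouse major histocompatibility complex (MHC) genes were followed in the kidneys of male mice given cisplatin or phosphate-buffered saline (PBS). They were taken as the genes whose symbol starts with H2-, without the pseudogene symbols that carry -ps, and 42 of the 55487 genes of the deposited table met this rule. Of these, 29 were grouped as class I, 12 as class II, and 1, H2-Ke6, belonged to neither class, since it codes for a hydroxysteroid dehydrogenase. All mice were on the B6 background and were either wild type (WT) or of the Nbl1 genotype labelled HET. Treatment with cisplatin or PBS began at 8 weeks of age and ran for 4 weeks. Kidneys were taken 3 days after treatment at a stated age of 11 weeks, which does not match a start at 8 weeks plus 4 weeks of treatment. The groups held 8 WT mice given PBS, 8 WT mice given cisplatin, 7 HET mice given PBS and 8 HET mice given cisplatin, with 1 library per mouse as the animal numbers in the titles give it. Neither the kind of Nbl1 allele nor the cisplatin dose is stated.

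MHC molecules hold peptides at the cell surface for T cells. Class I molecules pair with beta-2 microglobulin (B2m), are made by nearly all nucleated cells and carry peptides that the Tap1 transporter brings into the endoplasmic reticulum. Class II molecules are made mainly by dendritic cells, B cells and macrophages, and in the kidney dendritic cells and macrophages lie between the tubules. A class II molecule is an alpha chain and a beta chain, guarded by the invariant chain Cd74 until H2-DM exchanges the remnant of that chain for a peptide. Ciita is the coactivator that class II genes depend on, Nlrc5 is its relative for class I genes, and interferon gamma is the classical inducer of both. The platinum compound cisplatin damages DNA, and its main side effect is injury of the kidney tubule.

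Library totals lay between 24650000 and 37300000 counts. Nbl1, the targeted gene, ranged from 3.71 to 7.9 CPM (counts per 1000000) under PBS and 10.7 to 26.2 under cisplatin in WT mice, and from 0.106 to 4.2 and 0.861 to 13.9 in HET mice. In 5 libraries Nbl1 went against the label (HET PBS 1 and 6, HET cisplatin 3 and 4, and WT PBS 6, numbered in accession order), as an earlier look at these data had found. WT cisplatin 4, WT cisplatin 6 and HET cisplatin 6 stood apart from the other cisplatin libraries on the first 3 principal components. All 8 HET cisplatin mice have numbers in the 600s, against 6 of 8, 4 of 8 and 4 of 7 in WT cisplatin, WT PBS and HET PBS, so that this number range, which the labels do not explain, and the group are partly confounded. The CPM used throughout are scaled with TMM factors, which differed by 0.4 on the log2 scale between cisplatin and PBS libraries. The 4 kidney tubule markers were abundant in every library, with a summed level of 15000 to 17200 CPM under PBS and 1400 to 7260 CPM under cisplatin.

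The 200 bases before the RefSeq start site are shown for 6 genes that the results below turn on: the class II genes H2-Aa and H2-Eb1, the class I gene H2-K1, which rose under cisplatin, and the class I genes H2-Q6, H2-Q7 and H2-T22, which fell. They are RefSeq sequences on GRCm38.p6, written from 5′ to 3′ along the gene, with capitals marking 4 motifs that were searched on both strands: the Y box CTGATTGG, bound by NF-Y, the cyclic AMP response motif TGACGTCA, the kappa B palindrome (capitals in H2-K1 and the first capitals in H2-Q6) and an interferon response motif (capitals in H2-T22). The Y box of H2-Q6 and H2-Q7 and the interferon response motif of H2-T22 lie on the opposite strand and appear as their reverse complement. For H2-K1, which has 2 annotated starts, the window of the start farther upstream is given.
H2-Aa, chr17:34287824-34288023, minus strand: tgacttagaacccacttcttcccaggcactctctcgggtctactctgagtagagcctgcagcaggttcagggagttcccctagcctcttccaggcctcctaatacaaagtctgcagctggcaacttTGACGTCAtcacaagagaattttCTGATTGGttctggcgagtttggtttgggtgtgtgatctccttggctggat
H2-Eb1, chr17:34305667-34305866, plus strand: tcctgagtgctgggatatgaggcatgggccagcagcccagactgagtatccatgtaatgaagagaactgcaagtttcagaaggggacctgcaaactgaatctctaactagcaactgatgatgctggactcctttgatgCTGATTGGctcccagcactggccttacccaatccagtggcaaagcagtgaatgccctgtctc
H2-K1, chr17:34000348-34000547, minus strand: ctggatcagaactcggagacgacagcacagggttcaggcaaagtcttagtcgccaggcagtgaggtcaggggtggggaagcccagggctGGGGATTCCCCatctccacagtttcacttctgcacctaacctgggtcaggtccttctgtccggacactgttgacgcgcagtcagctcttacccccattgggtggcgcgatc
H2-Q6, chr17:35424650-35424849, plus strand: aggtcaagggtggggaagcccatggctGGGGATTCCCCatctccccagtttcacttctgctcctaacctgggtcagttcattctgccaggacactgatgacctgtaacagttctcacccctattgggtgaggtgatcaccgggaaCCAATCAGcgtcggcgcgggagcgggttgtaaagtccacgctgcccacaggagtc
H2-Q7, chr17:35438955-35439154, plus strand: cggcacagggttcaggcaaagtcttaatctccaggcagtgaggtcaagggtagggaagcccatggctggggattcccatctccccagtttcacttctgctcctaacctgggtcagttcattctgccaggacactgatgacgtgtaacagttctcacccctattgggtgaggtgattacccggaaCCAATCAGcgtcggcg
H2-T22, chr17:36042743-36042942, minus strand: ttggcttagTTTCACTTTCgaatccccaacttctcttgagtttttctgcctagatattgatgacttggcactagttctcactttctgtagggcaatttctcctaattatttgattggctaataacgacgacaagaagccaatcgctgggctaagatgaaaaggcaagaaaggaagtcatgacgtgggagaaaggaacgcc

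A RefSeq promoter was on hand for 31 of the 42 genes and for 18 of the 24 genes tested below, and there was none for H2-Ab1. The Y box lay in 3.54% of all 32851 promoter windows of the same length and in those of 7 tested MHC genes. These were H2-Aa, where it began 51 bases before the start, H2-Eb1 at 62 bases, H2-Oa at 46, H2-D1 at 53, H2-Q6 at 55, H2-Q7 at 16 and H2-T23 at 52. The cyclic AMP response motif of H2-Aa began at 74 bases and occurs in 1.47% of all windows. The kappa B palindrome lay in 14 windows in all (0.0426%), among them those of H2-K1, H2-D1 and H2-Q6. The interferon response motif, searched as a single fixed pattern, was present in 2.27% of all windows. Among the tested genes it was found in H2-T22, at 191 bases, and in H2-T23, at 124 bases. Near matches, such as those in the printed windows of H2-K1, H2-Q6 and H2-Q7, were not searched. A window without the fixed pattern is therefore not shown to lack an interferon element. The same limit holds for the Y box. The H2-K1 window that is not printed ends within a partial Y box, and that of H2-Q4 holds a near match. The motif matches given here are a description of letters. Genes with the same exact motif went both ways. Of the 7 tested genes with an exact Y box, 1 rose and 6 fell in WT mice. Of the 3 with the exact kappa B palindrome, 2 rose and 1 fell.

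Levels were compared between genes on the deposited TPM scale, which accounts for gene length. In WT PBS kidneys the highest mean was that of H2-K1, at 78.1 ± 8.1 TPM (SD, n = 8), followed by H2-D1 at 54.2 ± 5.8 (SD, n = 8). H2-Ke6 at 40.2 ± 2.2, H2-Aa at 37.7 ± 3.2, H2-T23 at 35.1 ± 2.0, H2-Eb1 at 33.6 ± 3.5, H2-Ab1 at 32.6 ± 4.8 and H2-T22 at 30.7 ± 2.4 TPM (SD, n = 8 each) came next, and each of these lay within the larger SD of itself and the next. A gap separated them from H2-Q4 at 8.18 ± 0.88, H2-Q6 at 7.73 ± 1.3 and H2-Q7 at 6.9 ± 1.0 TPM (SD, n = 8), which also overlapped. The H2-DM genes H2-DMb1 and H2-DMa followed at 4.56 ± 1.4 and 3.66 ± 0.96 TPM (SD, n = 8), and the other tested genes averaged under 3 TPM. H2-K1 and H2-D1 together made up 55.3% to 59.7% of all class I TPM in the 15 PBS libraries, and H2-Aa, H2-Ab1 and H2-Eb1 made up 90.1% to 92.8% of all class II TPM.

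Of the 42 genes, 24 had enough counts to be tested (15 class I, 8 class II and H2-Ke6). In the other 18, the count total over all 31 libraries was at most 101, and 9 of them had no count in any library: H2-M10.1, H2-M10.2, H2-M10.4, H2-M11, H2-Q3, H2-T3, H2-Ea, H2-Pa and H2-Pb. H2-Ea, the alpha chain of the class II I-E molecule, is known to be disabled in the haplotype of B6 mice. H2-Oa passed the low-count filter only through its PBS libraries (7 over the cutoff, none under cisplatin), and H2-Bl mostly through them (6 and 1), so the filter itself favoured genes that are lower under cisplatin at this level. Counts and medians are also given without them.

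Cisplatin-treated kidneys held less mRNA of the class II genes in both genotypes. In WT mice 7 of the 8 tested class II genes fell and none rose (edgeR quasi-likelihood test, adjusted p under 0.05), beside 29.6% of all 19268 tested genes called lower and 33.6% called higher. In HET mice 6 of the 8 fell, all of them among the 7 of WT mice, and none rose, beside 28.0% of all genes called lower. The median log2 fold change over the 8 genes was −1.87 in WT and −1.53 in HET, against 0.06 over all genes in each. Without H2-Oa the counts were 6 of 7 and 5 of 7, with medians of −1.82 and −1.5. In mice numbered in the 600s alone, 5 of the 8 fell in each genotype.

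The alpha chain gene of the class II I-A molecule, H2-Aa (chr17:34282744-34287823, minus strand, GRCm38), ranged from 49.9 to 65.8 CPM (median 57.2) in WT PBS and from 3.96 to 32.1 (median 13.6) in WT cisplatin. In HET mice it ranged from 48.2 to 73 (median 56.3) under PBS and from 8.26 to 37.6 (median 16.9) under cisplatin. No cisplatin library reached the lowest PBS library in either genotype. The lowest values were those of WT cisplatin 4 and HET cisplatin 6, and the highest under cisplatin were those of WT cisplatin 6 and HET cisplatin 4. H2-Aa fell by 1.92 on the log2 scale in WT (SE 0.27, edgeR adjusted p = 2.64e-07) and by 1.63 in HET (SE 0.27, adjusted p = 5.92e-06).

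Its partner beta chain gene H2-Ab1 (chr17:34257689-34269419, plus strand) ranged from 42.5 to 68.4 CPM (median 50.1) in WT PBS and from 2.14 to 29.5 (median 15.1) in WT cisplatin. The HET values were 40.7 to 57.9 (median 48.5) under PBS and 9.86 to 29.2 (median 17.1) under cisplatin, so that the treatments did not overlap in this gene either. H2-Ab1 fell by 1.82 in WT (SE 0.26, edgeR adjusted p = 3.34e-07) and by 1.5 in HET (SE 0.26, adjusted p = 1.1e-05).

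H2-Eb1 (chr17:34305867-34316674, plus strand), the beta chain gene of I-E, whose alpha chain gene H2-Ea had no counts, was transcribed at a level close to that of I-A. It ranged from 44.7 to 58.3 CPM (median 46.3) in WT PBS and from 2.55 to 26.9 (median 11) in WT cisplatin. The HET values were 40.9 to 56.8 (median 48.7) and 7.99 to 30.7 (median 15), again with no overlap. It fell by 1.93 in WT (SE 0.26, edgeR adjusted p = 1.48e-07) and by 1.57 in HET (SE 0.26, adjusted p = 6.71e-06). H2-Eb2, a neighbouring class II beta gene that was not tested, had 27 counts over the 8 WT PBS libraries and 4 over the 8 WT cisplatin libraries, with 24 and 5 in HET.

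**Figure D1:**
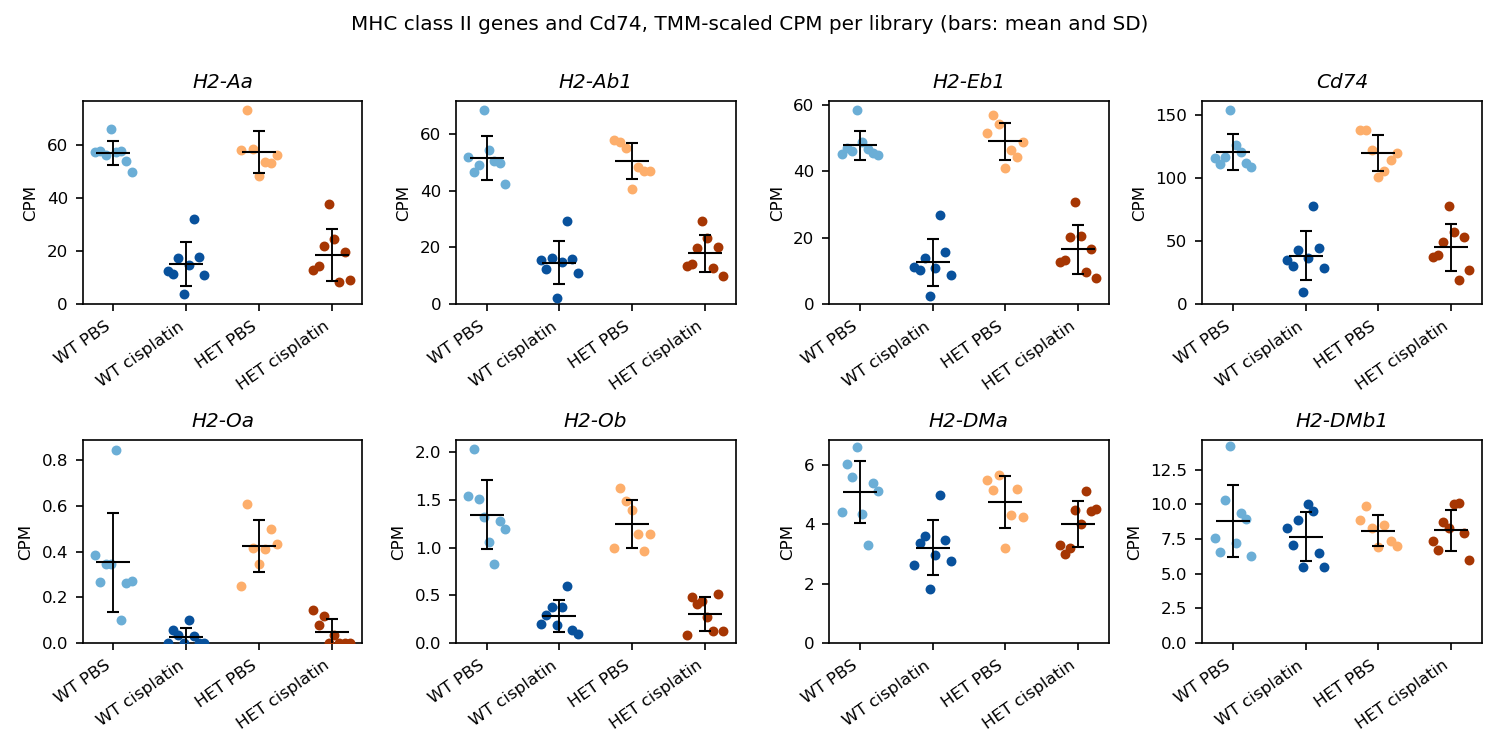
CPM (vertical axes, from 0) of 7 class II genes and the invariant chain gene Cd74 in each of the 31 libraries, by group. Each point is a library and the bars give the mean and SD. H2-Aa, H2-Ab1, H2-Eb1, H2-Oa, H2-Ob and Cd74 do not overlap between PBS and cisplatin in either genotype, while H2-DMa and H2-DMb1 do. H2-Oa passed the low-count filter only through its PBS libraries.

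H2-Oa and H2-Ob, the chains of H2-DO, which restrains H2-DM and is known mainly from B cells and dendritic cells, had low counts and large falls. H2-Oa had 83 counts over the WT PBS libraries and 7 over the WT cisplatin libraries, 4 of which had any, and 86 and 13 in HET. Its fitted log2 fold change was −3.46 in WT (SE 0.59, edgeR adjusted p = 6.08e-06) and −3.03 in HET (SE 0.53, adjusted p = 1.3e-05). H2-Oa passed the low-count filter only through its PBS libraries, so its selection favoured a fall, and these values are to be read with that limit. The highest WT cisplatin library had 0.102 CPM and the lowest WT PBS library 0.103, so that the groups lie next to each other without overlap. H2-Ob ranged from 0.825 to 2.03 CPM (median 1.3) in WT PBS and from 0.0961 to 0.601 (median 0.247) in WT cisplatin. In HET it ranged from 0.968 to 1.62 (median 1.14) and from 0.0857 to 0.512 (median 0.338). H2-Ob fell by 2.23 in WT (SE 0.31, edgeR adjusted p = 2.52e-07) and by 2.0 in HET (SE 0.31, adjusted p = 2.16e-06), with no overlap between treatments.

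The H2-DM genes, which code for the peptide exchange factor, moved less. H2-DMa ranged from 3.3 to 6.61 CPM (median 5.25) in WT PBS and from 1.82 to 5 (median 3.18) in WT cisplatin. In HET it ranged from 3.19 to 5.66 (median 5.17) and from 3 to 5.12 (median 4.24), and the treatments overlapped in both genotypes. H2-DMa fell by 0.67 in WT (SE 0.16, edgeR adjusted p = 0.000554), and its log2 fold change in HET was −0.24 (SE 0.16, adjusted p = 0.206).

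H2-DMb2 fell by 0.76 in WT (SE 0.28, edgeR adjusted p = 0.0179) and by 0.85 in HET (SE 0.29, adjusted p = 0.0115), with overlapping ranges of 0.85 to 2.3 and 0.252 to 1.58 CPM in WT and 0.625 to 1.93 and 0.404 to 1.25 CPM in HET. Without WT PBS 4 the WT value was −0.59 and did not pass (adjusted p = 0.0617). H2-DMb1 ranged from 6.29 to 14.2 CPM in WT PBS and from 5.5 to 10 in WT cisplatin, and its log2 fold changes of −0.2 in WT (SE 0.15, adjusted p = 0.243) and 0 in HET (SE 0.16, adjusted p = 0.991) did not pass. H2-DMb1 and H2-DMb2 share 22.7% and 24.8% of their 50-base stretches with other genes, mostly with each other, so reads could be split between them. Within the mice numbered in the 600s, neither H2-DMa nor H2-DMb2 passed (adjusted p = 0.0727 and 0.205 in WT). With library totals in place of TMM the WT values of H2-DMa and H2-DMb2 were −0.28 and −0.36 and did not pass either. The HET call of H2-DMb2 was also lost in the mice numbered in the 600s (−0.66) and with library totals (−0.46, adjusted p = 0.142). With log2(TPM + 1) H2-DMb2 passed neither in WT (−0.12, adjusted p = 0.269) nor in HET (−0.14, adjusted p = 0.222). H2-DMb1 was called higher in HET with library totals (0.4, edgeR adjusted p = 0.0171) and with log2(TPM + 1) (0.39, limma adjusted p = 0.00899).

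The class II partners from outside the MHC went 3 ways. Cd74, the invariant chain, ranged from 109 to 154 CPM under PBS and 9.72 to 78.2 under cisplatin in WT mice, and from 101 to 138 and 19.2 to 78.2 in HET mice, without overlap between treatments. It fell by 1.66 in WT (SE 0.25, edgeR adjusted p = 9.32e-07) and by 1.41 in HET (SE 0.25, adjusted p = 1.87e-05), close to the falls of the I-A genes. Ctss, the protease cathepsin S that trims the invariant chain, rose by 1.26 in WT (SE 0.17, adjusted p = 1.82e-07) and by 0.78 in HET (SE 0.18, adjusted p = 0.000388). Over the list of 10 class II loading and transactivation genes, WT mice had 2 that rose and 4 that fell, and HET mice 2 and 3, with medians of −0.14 and −0.11.

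Ciita, the class II coactivator, ranged from 4.05 to 8.41 CPM (median 6.46) in WT PBS and from 0.22 to 4.21 (median 2.05) in WT cisplatin, and fell by 1.73 (SE 0.51, edgeR adjusted p = 0.00389), while its value within the mice numbered in the 600s was −1.5 and did not pass (adjusted p = 0.104). In HET mice it ranged from 4.51 to 6.53 (median 5.55) under PBS. Under cisplatin 7 of the 8 HET libraries lay between 1.24 and 2.26 CPM, and HET cisplatin 6 had 24.3 CPM, above every other library of the study. With that library the HET log2 fold change was −0.3 (SE 0.5, adjusted p = 0.631). Without it Ciita fell by 1.7 (adjusted p = 6.93e-06), the same size as in WT. HET cisplatin 6 nevertheless had the lowest H2-Aa, 8.26 CPM, and the lowest Cd74, 19.2 CPM, of the HET libraries.

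Across the 16 cisplatin libraries the levels of H2-Aa, Cd74, H2-Eb1 and H2-Ab1 varied closely together, on the scale of log2(CPM + 0.1). Among 20 relations with H2-Aa that were computed (10 genes under each treatment), Cd74 had r = 0.986 under cisplatin (n = 16, permutation p = 1e-05, adjusted p = 5e-05; rho = 0.987, p = 1e-05). The p of 1e-05 is the smallest that 100000 resamples can give. H2-Eb1 had r = 0.975 (permutation p = 1e-05, adjusted p = 5e-05; rho = 0.974, p = 1e-05) and H2-Ab1 had r = 0.933 (permutation p = 1e-05, adjusted p = 5e-05; rho = 0.956, p = 1e-05). Without WT cisplatin 4 and HET cisplatin 4, the 2 libraries farthest from the median of H2-Aa, these were 0.978, 0.961 and 0.945. The other class II genes followed H2-Aa less closely under cisplatin. H2-Ob had r = 0.608 (permutation adjusted p = 0.024, rho = 0.682), H2-DMa 0.568 (0.042, rho = 0.341) and H2-DMb1 0.547 (0.045, rho = 0.437). Without the same 2 libraries they were 0.675, 0.162 and 0.421, and for H2-DMa r was 0.949 in WT and −0.139 in HET.

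Among the 15 PBS libraries, whose H2-Aa levels span less, r was 0.831 for Cd74 (permutation p = 0.00015, adjusted p = 5e-04; rho = 0.841, p = 0.00017), 0.875 for H2-Eb1 (permutation p = 1e-05, adjusted p = 5e-05; rho = 0.892, p = 2e-05) and 0.814 for H2-Ab1 (permutation p = 0.00036, adjusted p = 0.001; rho = 0.833, p = 0.00027). Without HET PBS 2 and HET PBS 4 they were 0.839, 0.82 and 0.878. H2-DMb1 had r = 0.632 under PBS (permutation adjusted p = 0.03). H2-DMa, H2-Ob, Ciita, B2m, H2-K1 and H2-D1 had 0.423, 0.253, 0.14, 0.326, 0.515 and 0.385, with permutation adjusted p from 0.076 to 0.62. Ciita did not follow H2-Aa over all 16 cisplatin libraries (r = 0.256, permutation p = 0.32, adjusted p = 0.36; rho = 0.274, p = 0.3). Without HET cisplatin 6 the 15 remaining libraries gave r = 0.768 (permutation p = 0.003; rho = 0.493, p = 0.064), and 0.515 without the 2 farthest libraries as well, so the relation rests partly on those.

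B2m, the class I light chain, also varied with H2-Aa under cisplatin (r = 0.865, n = 16, permutation p = 2e-05, adjusted p = 8e-05; rho = 0.838, p = 0.00013; 0.714 without the 2 farthest libraries). For H2-K1 r was 0.621 (permutation p = 0.011, adjusted p = 0.024; rho = 0.539, p = 0.033), and 0.405 without the 2 farthest, so that this relation rests on them. H2-D1 had r = 0.299 (permutation p = 0.26, adjusted p = 0.31; rho = 0.241, p = 0.37).

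**Figure D2:**
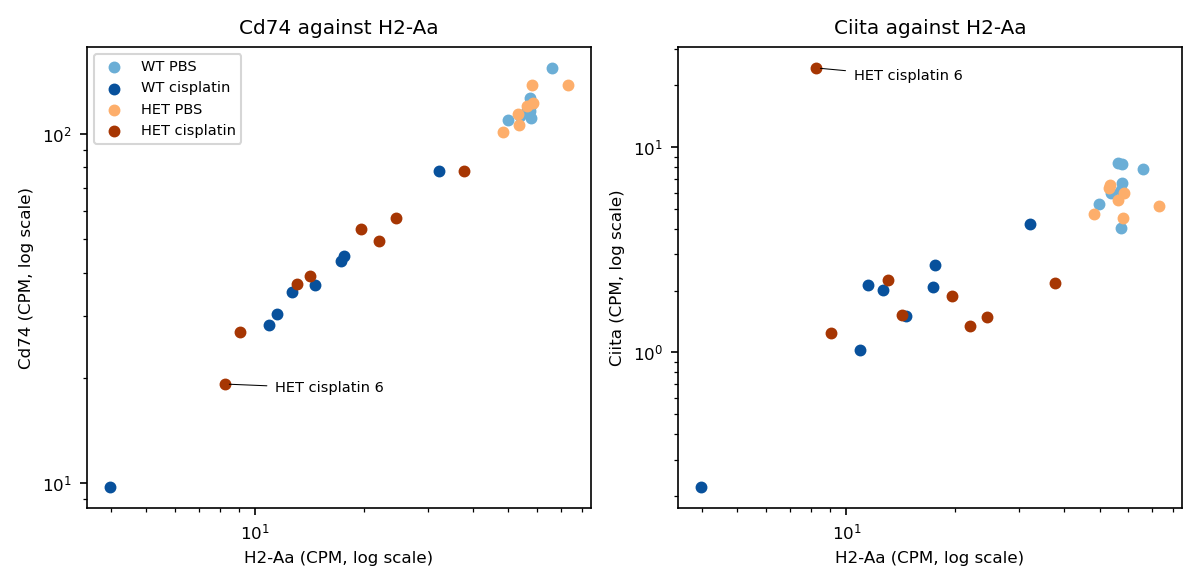
Levels of Cd74 (left) and Ciita (right) against H2-Aa in CPM on log axes, 1 point per library, coloured by group. Cd74 follows H2-Aa from 3.96 to 73 CPM, and HET cisplatin 6, with 24.3 CPM of Ciita beside 8.26 CPM of H2-Aa, lies away from the other libraries on the right.

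Markers of immune cells that carry class II were counted beside these genes. Of the 6 tested dendritic cell markers, 5 fell in each genotype (medians −1.35 and −2.02), beside 29.6% of all genes called lower in WT and 28.0% in HET. Clec9a, a receptor of cross-presenting dendritic cells, fell from 0.932 to 1.96 CPM in WT PBS to 0 to 0.174 in WT cisplatin (log2 fold change −4.01, SE 0.41, edgeR adjusted p = 4.6e-10) and by 3.62 in HET (adjusted p = 3.17e-09). Cd209a, Xcr1 and Flt3 fell by 2.47, 1.46 and 1.25 in WT and by 3.46, 1.71 and 2.33 in HET. Clec9a, with at most 7 counts in any cisplatin library, passed the low-count filter only through its PBS libraries. Cd209a, with at most 11, passed mostly through them. Their selection favoured a fall, and their values and the 5 of 6 are to be read with that limit. The summed level of the list, most of it from Zbtb46, which did not pass, was 20.5 to 30.4 CPM under PBS and 18.8 to 25 under cisplatin. In bulk tissue, fewer cells of a type and less RNA per cell cannot be told apart, and the part of these cells in the class II result was not tested.

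Macrophage markers went the other way: WT mice had 7 of 8 that rose and 1 that fell, and HET mice 6 and 1 (medians 1.28 and 0.97). C1qa, C1qc and Mrc1 rose by 1.31, 1.44 and 1.85 in WT and by 0.78, 1.02 and 1.33 in HET, while Csf1r fell by 0.71 and 0.84. Their summed level was 86.2 to 106 CPM under PBS, and under cisplatin it was 98.2 to 188 in WT and 38 to 164 in HET, where HET cisplatin 6 had the 38. Without that library 7 rose and 1 fell in HET. B cell markers were near 0 in all groups (summed level 0.512 to 2.56 CPM under PBS and 0.25 to 1.35 under cisplatin), and 2 of 3 tested fell in WT and none in HET. T cell markers summed to 1.06 to 2.99 CPM under PBS and 0.514 to 1.52 under cisplatin, and 2 of 3 fell in WT and 3 of 3 in HET. At such low levels the low-count filter favoured genes that are lower under cisplatin, which bears on the B and T cell counts.

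The 4 endothelial markers fell in both genotypes, from a summed 262 to 313 CPM under PBS to 168 to 201 under cisplatin. Among all tested genes 29.6% were called lower in WT and 28.0% in HET. Both tested lymph node and spleen markers also fell, from a summed 3.61 to 6.08 CPM to 0.995 to 3.96. None of the 3 neutrophil markers passed in WT (smallest edgeR adjusted p = 0.0538, 2 with an unadjusted p under 0.05, and 1 called lower by DESeq2), and all 3 fell in HET. Neither NK cell marker had enough counts to be tested, with a summed level of at most 0.598 CPM. All 4 tubule markers fell, with Slc34a1 at −3.42 in WT and −2.96 in HET.

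The class I genes did not move as 1 group. Of 15 tested, WT mice had 3 that rose and 8 that fell, and HET mice had 3 and 7 (edgeR adjusted p under 0.05). Among all genes 63.2% in WT and 59.0% in HET were called in either direction. Split by direction, 29.6% of all genes were lower and 33.6% higher in WT, and 28.0% were lower in HET. The higher calls made up 52.6% of all HET calls, so that they outnumbered the lower ones in HET as well. Under TMM scaling the class I calls thus leaned to the lower side. The medians were −0.37 in WT and −0.27 in HET, −0.2 and −0.11 without H2-Bl, and on the other side of 0 with library totals in place of TMM (0.03 and 0.14). H2-K1 and H2-Q2 rose in both genotypes, and 7 genes (H2-Bl, H2-Q5, H2-Q6, H2-Q7, H2-T22, H2-T23 and H2-T24) fell in both. Without H2-Bl, 7 and 6 of 14 fell. In mice numbered in the 600s alone WT mice had 2 that rose and 5 that fell of 14, and HET mice 3 and 5.

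H2-K1 (chr17:33996017-34000347, minus strand), 1 of the classical class I genes of these mice, ranged from 120 to 164 CPM (median 135) in WT PBS and from 157 to 223 (median 195) in WT cisplatin. In HET it ranged from 126 to 150 (median 140) and from 167 to 230 (median 191). WT cisplatin 4, at 157 CPM, was the only WT cisplatin library below the highest WT PBS library, and the HET treatments did not overlap. H2-K1 rose by 0.49 in WT (SE 0.069, edgeR adjusted p = 2.65e-07) and by 0.48 in HET (SE 0.072, adjusted p = 1.05e-06). It shares 9.63% of its 50-base stretches with other genes.

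H2-D1 (chr17:35262730-35267499, plus strand), the other classical gene, ranged from 143 to 191 CPM (median 154) in WT PBS and from 154 to 212 (median 180) in WT cisplatin, and from 155 to 179 (median 165) and 157 to 210 (median 186) in HET. The ranges overlapped widely. It rose by 0.19 in WT (SE 0.072, edgeR adjusted p = 0.0234), and its value in HET was 0.16 (SE 0.075, adjusted p = 0.0649). The WT call was lost without WT PBS 1 (adjusted p = 0.0522), WT PBS 2 (0.0531), WT cisplatin 1 (0.0624) or WT cisplatin 3 (0.061), and within the mice numbered in the 600s (0.272). In HET it passed without HET cisplatin 1 (adjusted p = 0.0472), 2 (0.0403) or 6 (0.0281), or without the 3 libraries that stand apart (0.0178). It also passed in HET with library totals (0.57, adjusted p = 3.53e-08), log2(TPM + 1) (0.62, 5.59e-08), limma voom (0.0205), a fit of the compared groups alone (0.043) and a filter of at least 1 CPM (0.0425).

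H2-Q2, a class I gene of the Q region, had the largest rise of the tested MHC genes from a low level. It ranged from 0.378 to 1.02 CPM (median 0.65) in WT PBS and from 0.854 to 3 (median 2.09) in WT cisplatin, where only WT cisplatin 6, the library with the highest H2-Aa of its group, lay below 1.02. In HET it ranged from 0.315 to 0.824 (median 0.555) and from 1.28 to 2.6 (median 1.88), without overlap. H2-Q2 rose by 1.65 in WT (SE 0.22, edgeR adjusted p = 1.01e-07) and by 1.77 in HET (SE 0.23, adjusted p = 1.14e-07). H2-Q1, its nearest relative by shared sequence and not tested, had 3 and 15 counts over the WT groups and 4 and 18 over the HET groups, and H2-Q2 shares 12.9% of its 50-base stretches with it.

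H2-Q4 ranged from 18.2 to 28.8 CPM under PBS and from 18.8 to 29.2 under cisplatin over both genotypes. Its value was −0.02 in WT (SE 0.077, adjusted p = 0.845), and it rose by 0.21 in HET (SE 0.079, edgeR adjusted p = 0.0263). The HET call was lost without HET PBS 5 (0.17, adjusted p = 0.0692), HET PBS 6 (0.16, 0.0784), HET cisplatin 3 (0.17, 0.0638) or HET cisplatin 5 (0.18, 0.0562), and the test of the difference between genotypes did not pass (interaction 0.23, SE 0.11, adjusted p = 0.889). With library totals in place of TMM the WT value was 0.38 and passed (adjusted p = 4.71e-05).

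Of the 4 tested class I genes of the T region, H2-T22, H2-T23 and H2-T24 fell in both genotypes and H2-T10 did not pass. H2-T22 (chr17:36037128-36042747, minus strand), which codes for a ligand of gamma delta T cell receptors, ranged from 69.3 to 85.1 CPM (median 76.4) in WT PBS and from 29.9 to 38.6 (median 32.6) in WT cisplatin. In HET it ranged from 69.2 to 79.2 (median 70.9) and from 33.3 to 42.8 (median 36.4), where the 42.8 was HET cisplatin 6. It fell by 1.22 in WT (SE 0.054, edgeR adjusted p = 3.44e-18) and by 0.99 in HET (SE 0.055, adjusted p = 1.08e-15), the smallest p-values of the MHC genes. It shares 31.2% of its 50-base stretches with H2-T10, a related gene at 0.417 to 1.67 CPM over all libraries, whose values of 0.25 in WT (adjusted p = 0.352) and 0.14 in HET (adjusted p = 0.647) did not pass. With library totals H2-T10 was called higher in WT (0.65, adjusted p = 0.0137) and in HET (0.54, adjusted p = 0.0466), and with log2(TPM + 1) as well (adjusted p = 0.000621 and 0.0415).

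H2-T23 (chr17:36029773-36032855, minus strand), which codes for Qa-1, a ligand of inhibitory receptors on NK cells, ranged from 67.7 to 81.6 CPM (median 73.4) in WT PBS and from 28.7 to 51.8 (median 37.3) in WT cisplatin. In HET it ranged from 68.6 to 79.2 (median 75.7) and from 34.2 to 56.9 (median 41.5), so that cisplatin and PBS libraries did not overlap. H2-T23 fell by 0.95 in WT (SE 0.091, edgeR adjusted p = 1.4e-10) and by 0.84 in HET (SE 0.093, adjusted p = 4.12e-09). H2-T24 fell by 1.15 in WT (SE 0.18, adjusted p = 1.42e-06) and by 0.56 in HET (SE 0.18, adjusted p = 0.00882), from 2.39 to 4.18 CPM in WT PBS to 0.786 to 2.67 in WT cisplatin. Its HET call was lost with library totals (−0.16, adjusted p = 0.416) and without the 5 libraries whose Nbl1 went against the label (−0.48, adjusted p = 0.073).

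The Q region genes H2-Q6 and H2-Q7, which code for the nonclassical Qa-2 molecules, fell as well. H2-Q6 ranged from 20.1 to 32.2 CPM (median 22.9) in WT PBS and from 4.09 to 10.4 (median 7.48) in WT cisplatin, and from 17.8 to 24.2 (median 21.8) and 4.7 to 12.3 (median 9.65) in HET. All cisplatin libraries lay below all PBS libraries of their genotype. It fell by 1.65 in WT (SE 0.16, edgeR adjusted p = 2.61e-10) and by 1.21 in HET (SE 0.16, adjusted p = 1.85e-07).

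H2-Q7 ranged from 20 to 28.2 CPM (median 22.4) in WT PBS and from 9.34 to 15.1 (median 13.8) in WT cisplatin, and from 17.4 to 24 (median 20.4) and 8.58 to 18.1 (median 13.7) in HET, where the treatments overlapped. It fell by 0.79 in WT (SE 0.11, edgeR adjusted p = 2.02e-07) and by 0.56 in HET (SE 0.11, adjusted p = 7.28e-05). H2-Q6 shares 32% of its 50-base stretches with other genes and H2-Q7 26.4%, so that the counting of near-identical reads bears on the split between them. With library totals H2-Q7 had −0.16 in HET and did not pass (adjusted p = 0.191). H2-Q5, an annotated pseudogene that shares 36.4%, fell by 0.48 in WT (SE 0.15, adjusted p = 0.00758) and by 0.4 in HET (SE 0.16, adjusted p = 0.0301). With library totals it passed in neither genotype (WT −0.09, adjusted p = 0.608; HET 0, 0.987), nor with log2(TPM + 1) (WT −0.13, 0.667; HET 0.16, 0.613). Its HET call was lost without HET PBS 2 (−0.3, adjusted p = 0.11), HET cisplatin 2 (−0.37, 0.0562), HET cisplatin 3 (−0.37, 0.0537) or HET cisplatin 8 (−0.36, 0.0588), and within the mice numbered in the 600s it passed in neither genotype.

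Among the remaining class I genes, H2-M3, which presents formylated peptides of bacteria and mitochondria, fell by 0.37 in WT (SE 0.13, edgeR adjusted p = 0.0146) and had −0.27 in HET (SE 0.13, adjusted p = 0.09). Its WT value was 0.03 with library totals and −0.28 (adjusted p = 0.0839) without the 3 libraries that stand apart. H2-Bl, an annotated pseudogene, passed the low-count filter mostly through its PBS libraries. It had 128 counts over WT PBS and 26 over WT cisplatin, and 54 and 24 in HET. It fell by 2.33 in WT (SE 0.48, adjusted p = 8.43e-05) and by 1.55 in HET (SE 0.52, adjusted p = 0.0117). The HET fall did not pass without the 5 libraries whose Nbl1 went against the label (−1.26, adjusted p = 0.105) or with library totals (−1.15, adjusted p = 0.0503). The pseudogene H2-K2 had −0.03 in WT and 0.05 in HET (adjusted p = 0.927 and 0.895). H2-Q10, a secreted class I molecule known from liver, had 0.11 in WT and 0.5 in HET (adjusted p = 0.771 and 0.165). In HET it passed with library totals (0.9, adjusted p = 0.00968), with log2(TPM + 1) (0.47, 0.0117), with limma voom (0.67, 0.0125) and without the 3 libraries that stand apart (0.6, 0.0173). Its highest value by far, 5.31 CPM, was that of WT cisplatin 6. Of the genes not tested, H2-M1 had 4 counts in WT PBS and 11 in HET PBS, H2-M10.5 had 9 and 10, and neither had any under cisplatin. H2-M2 had 39 and 24 counts in WT PBS and WT cisplatin and 17 and 21 in HET, and H2-M5 had 11 and 16 in WT and 11 and 12 in HET.

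**Figure D3:**
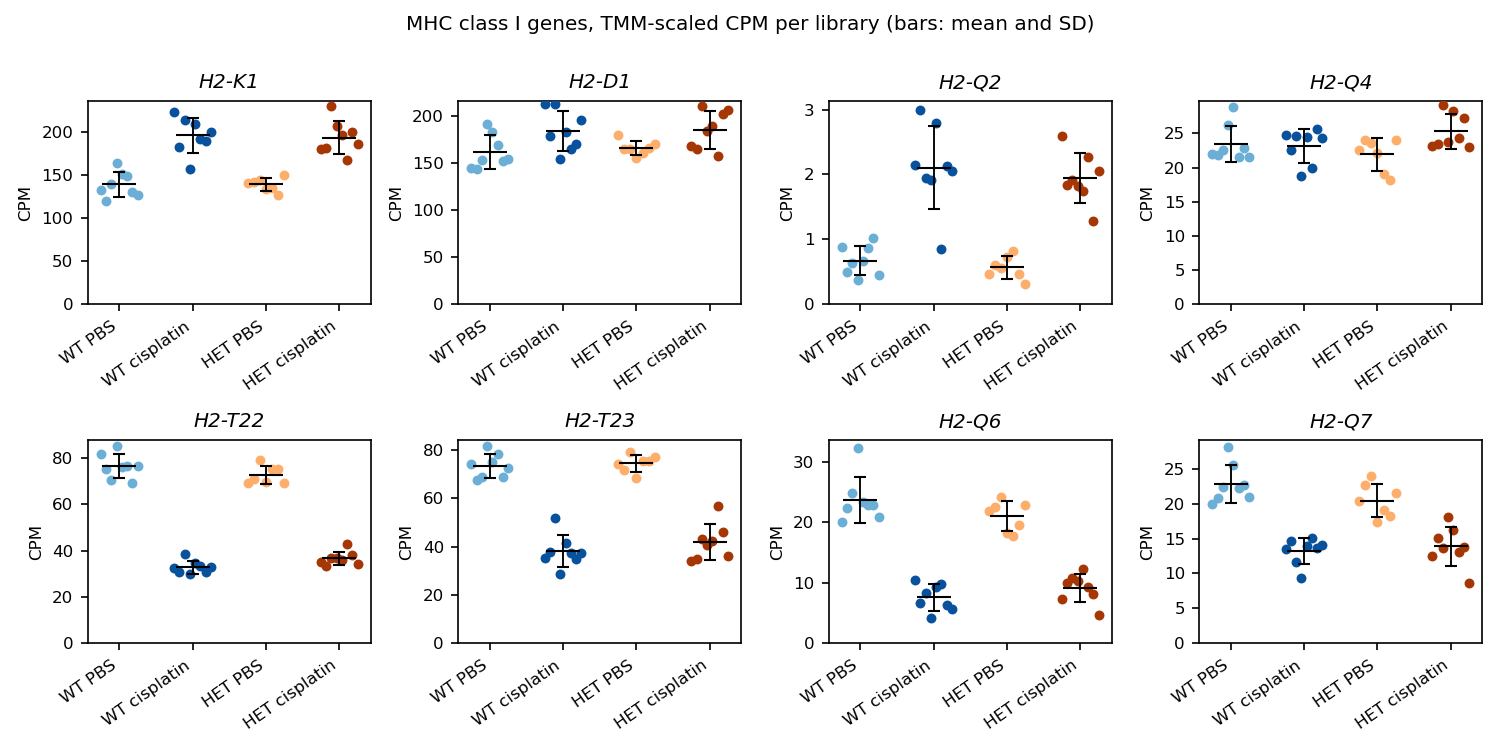
CPM (vertical axes, from 0) of 8 class I genes in each of the 31 libraries, by group, with points for libraries and bars for the mean and SD. H2-T22, H2-T23 and H2-Q6 do not overlap between treatments in either genotype, H2-K1 and H2-Q2 lie higher under cisplatin, and H2-D1 and H2-Q4 overlap.

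Counted by ranges, 5 of 8 class II genes (H2-Aa, H2-Ab1, H2-Eb1, H2-Oa and H2-Ob) had cisplatin and PBS libraries that did not overlap in WT, all lower, beside 17.4% of all tested genes lower without overlap and 14.4% higher. The same 5 were lower without overlap in HET, beside 14.9% of all genes lower and 11.0% higher. Without H2-Oa, which the filter favoured, the count was 4 of 7 in each genotype. Among the 15 class I genes 5 did not overlap in WT, all lower (H2-Bl, H2-Q6, H2-Q7, H2-T22 and H2-T23). In HET 5 did not overlap, 3 lower (H2-Q6, H2-T22 and H2-T23) and 2 higher (H2-K1 and H2-Q2). Without H2-Bl the WT count was 4 of 14. H2-Ke6, the enzyme gene within the region, fell by 0.88 in WT (SE 0.074, edgeR adjusted p = 9.31e-12) and by 0.79 in HET (SE 0.076, adjusted p = 1.86e-10), from 38.3 to 45.5 CPM in WT PBS to 18.5 to 26.3 in WT cisplatin. It shares 70.5% of its 50-base stretches with the annotated gene Gm20427, so its counts are uncertain.

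**Figure D4:**
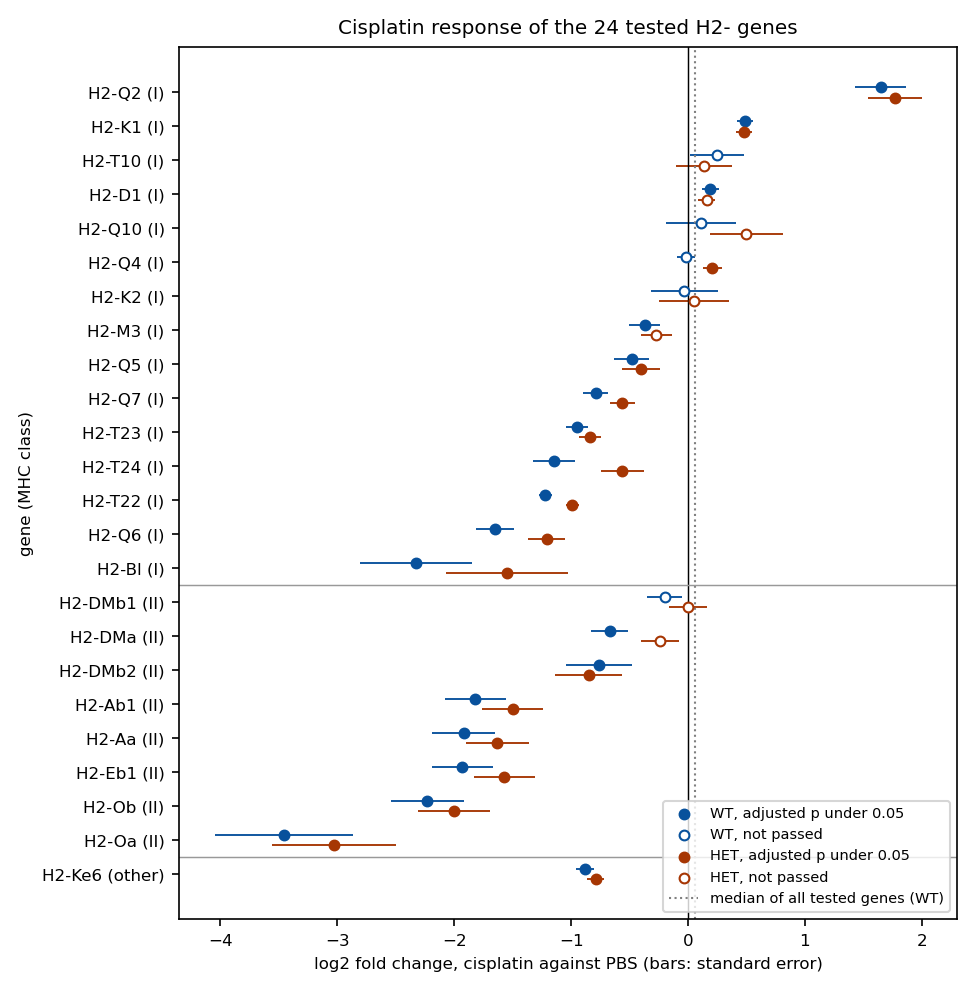
Log2 fold change of cisplatin against PBS with its standard error for the 24 tested genes in WT and HET mice, class I above, class II below and H2-Ke6 at the bottom. Filled points passed at an adjusted p under 0.05. The class II genes lie between −3.46 and 0, and the class I genes spread from −2.33 to 1.77.

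The make-up of MHC mRNA differed between treatments. The class II genes summed to 99.9 to 141 TPM under PBS and 13.6 to 94.8 under cisplatin in WT mice, which did not overlap, and to 93.1 to 140 and 35.6 to 103 in HET mice, which did. The class I genes summed to 192 to 265 TPM under PBS and 237 to 347 under cisplatin. TPM carry no TMM scaling, and the 0.4 log2 shift named above raises cisplatin libraries on this scale. The ratio of the sums, which does not depend on scaling, was 1.65 to 2.28 in the 15 PBS libraries and 3.01 to 17.4 in the 16 cisplatin libraries, where WT cisplatin 4 had the 17.4. H2-K1 and H2-D1 rose from 55.3% to 59.7% of class I TPM under PBS to 69% to 78.7% under cisplatin. H2-Aa, H2-Ab1 and H2-Eb1 made up 53.3% to 88.2% of class II TPM under cisplatin, below the 90.1% to 92.8% of the PBS libraries.

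**Figure D5:**
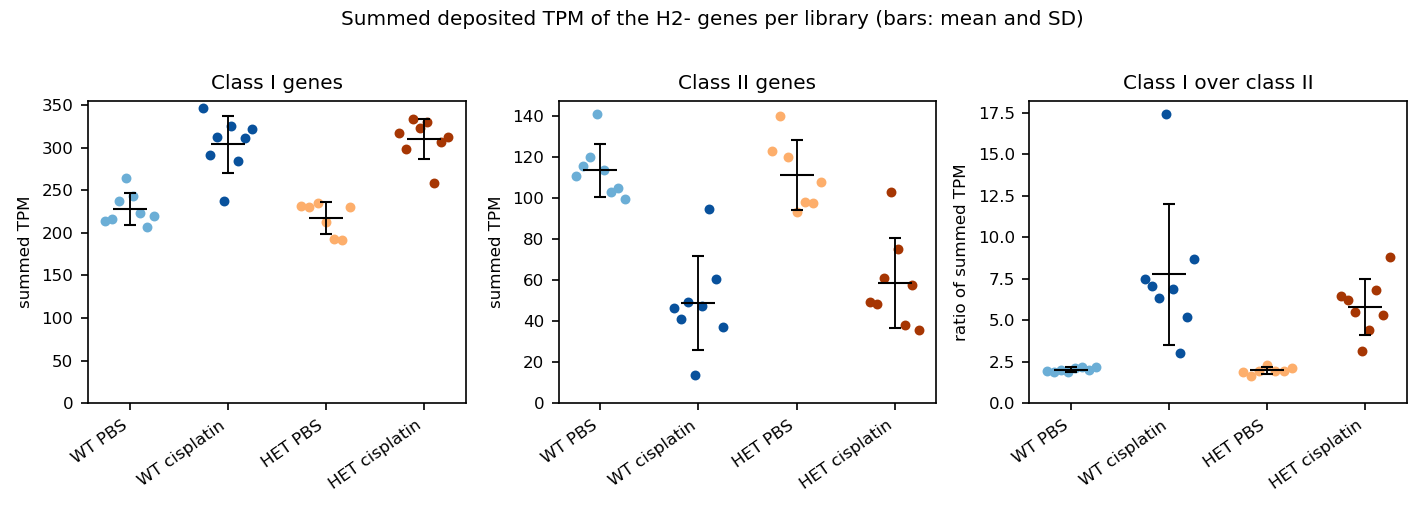
Summed TPM of the class I genes, of the class II genes and their ratio in each library, by group, with the mean and SD as bars. The ratio is at most 2.28 in every PBS library and at least 3.01 in every cisplatin library.

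Genes that load class I molecules went both ways. Of 15 such genes WT mice had 6 that rose and 4 that fell, and HET mice 8 and 3 (medians 0.02 and 0.46), beside the 63.2% and 59.0% of all genes called in either direction. Under library totals the list held 11 higher and 1 lower call in WT, and 13 and 1 in HET. The peptide transporter Tap1 ranged from 8.23 to 11.9 CPM in WT PBS and from 16.2 to 28.2 in WT cisplatin, and from 6.98 to 10 and 23 to 63.5 in HET, where HET cisplatin 6 had the 63.5. It rose by 1.29 in WT (SE 0.15, edgeR adjusted p = 9.13e-09) and by 1.93 in HET (SE 0.16, adjusted p = 1.04e-11), or 1.72 without that library. Tapbp, tapasin, which bridges the transporter and the class I molecule, rose by 0.38 in WT (SE 0.055, adjusted p = 3.64e-07) and by 0.48 in HET (SE 0.057, adjusted p = 1.34e-08).

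B2m ranged from 137 to 200 CPM in WT PBS and from 104 to 157 in WT cisplatin, and from 136 to 171 and 115 to 184 in HET. Its values of −0.2 in WT (SE 0.088, edgeR adjusted p = 0.0515) and −0.08 in HET (SE 0.091, adjusted p = 0.447) did not pass. The WT value lay so near the threshold that it passed without any 1 of 9 libraries (WT PBS 1, 2 or 8, WT cisplatin 1, 3, 5 or 6, HET cisplatin 4 or 8), with values from −0.23 to −0.14 over all single omissions, and it was 0.2 and called higher with library totals (adjusted p = 0.0324). Nlrc5, the class I coactivator, ranged from 3.93 to 9.57 CPM in 30 libraries and had 21.6 CPM in HET cisplatin 6. Its values of −0.26 in WT (adjusted p = 0.299) and 0.24 in HET (adjusted p = 0.365; −0.12 and 0.485 without HET cisplatin 6) did not pass.

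Class I-like genes that lie outside the H2- symbols moved strongly: all 8 tested passed in both genotypes, 6 higher and 2 lower (medians 0.97 and 1.01). Among all genes 63.2% in WT and 59.0% in HET were called in either direction. In 1 of the 6 higher genes no PBS library had more than 6 counts. That gene passed the low-count filter only through its cisplatin libraries, so its selection favoured a rise. Mr1, which presents vitamin B metabolites, and Hfe, the iron regulator, rose by 1.43 and 1.0 in WT (edgeR adjusted p = 6.54e-13 and 7.08e-14) and by 1.61 and 1.09 in HET. Fcgrt, the neonatal Fc receptor, fell by 1.87 and 1.89 (adjusted p = 2.53e-16 and 4.88e-16), and Azgp1 fell by 3.78 and 3.58. Of 19 neighbours in the MHC region with other functions, WT mice had 7 that rose and 8 that fell and HET mice 6 and 8, with medians of 0.05 and 0.09 near the median of all genes. Ppt2, Flot1, Rps18 and Vps52 had −1.99, 1.18, 0.61 and −0.63 in WT and −1.8, 1.04, 0.55 and −0.52 in HET, all past the threshold.

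Genes that respond to interferon gamma were counted beside the MHC genes. Over all tested genes, 33.6% were called higher and 29.6% lower in WT. In HET 59.0% of all genes were called in either direction and 28.0% were lower. Of the 19 interferon gamma genes, WT mice had 3 that rose and 10 that fell (median −0.56), and HET mice 6 and 1 (median 0.53). The HET figures rest on HET cisplatin 6, in which the list summed to 1430 CPM, against 289 to 372 in the other 7 HET cisplatin libraries and 253 to 480 under PBS. Without that library 6 rose and 8 fell in HET, and the median was −0.19. The difference between genotypes had an unadjusted p under 0.05 for 12 of the 19 genes and passed adjustment for none (edgeR), and without HET cisplatin 6 the first count was 8.

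Cxcl9, a chemokine induced by interferon gamma, ranged from 0.764 to 2.42 CPM under PBS and from 0 to 0.403 under cisplatin, and fell by 3.52 in WT (edgeR adjusted p = 2.63e-09) and 3.14 in HET (2.7e-08). With at most 12 counts in any cisplatin library, Cxcl9 passed the low-count filter mostly through its PBS libraries, so its selection favoured a fall. The receptor genes Ifngr1 and Ifngr2 rose by 1.39 and 0.78 in WT and by 1.15 and 0.87 in HET. Gbp4 fell by 1.37 in WT (adjusted p = 1.42e-06) and had −0.36 in HET (adjusted p = 0.147). In HET cisplatin 6 it was at 13.6 CPM, and without that library it fell by 0.65 in HET (adjusted p = 0.00144).

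Nbl1 genotype was not associated with a called difference in any of the 24 tested MHC genes. Under PBS 0 of 24 passed, beside 0% of all genes, with a smallest adjusted p of 0.92 (edgeR) and 1 gene, H2-Bl, at an unadjusted p under 0.05. Under cisplatin 0 of 24 passed, beside 0.00519% of all genes (1 gene), with a smallest adjusted p of 0.874 and 1 gene, H2-T22, at an unadjusted p under 0.05 (HET minus WT 0.16, SE 0.054). DESeq2 gave 0 calls and 1 and 2 genes at an unadjusted p under 0.05, and limma voom with sample weights 0 calls and 2 and 8 genes. The size of the cisplatin response differed between genotypes in 0 of 24, beside 0% of all genes, with a smallest adjusted p of 0.725 and 2 genes at an unadjusted p under 0.05, H2-T22 (interaction 0.23, SE 0.077) and H2-T24 (0.59, SE 0.25). By DESeq2 2 and by limma voom 7 genes had an unadjusted p under 0.05, and none passed. H2-Bl, H2-T22 and H2-T24 were named here after their values were seen.

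Under cisplatin 7 of the 8 class II genes had positive genotype values, H2-DMb2 had −0.2, and none passed. H2-Aa had 0.3 (SE 0.27, adjusted p = 0.921), H2-Ab1 0.29 (SE 0.26, adjusted p = 0.921) and H2-Eb1 0.4 (SE 0.26, adjusted p = 0.896), in units of log2, HET minus WT. The WT group holds WT cisplatin 4 and the HET group HET cisplatin 4, the lowest and highest H2-Aa values of all cisplatin libraries. A missed threshold does not show that the genotypes are alike, and 5 libraries whose Nbl1 went against the label are part of these groups.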

How the data were processed

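Kidney RNA was sequenced as bulk mRNA libraries (KAPA mRNA HyperPrep, RNA integrity number over 8, per the labels' protocols). The submitters' processing notes name fastp, STAR, featureCounts and the GRCm38 (mm10) build. No versions, strand setting or read length are stated. The deposited table holds, per the file headers, a count, a TPM and an FPKM column for each library. The deposited columns named counts per the file headers were treated like estimated counts, since 12.5% of the values are not whole, and were rounded. How the authors came to such values is not stated. The deposited TPM served for levels between genes, and the FPKM deposited by the authors were not used.

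Genes were kept by edgeR's filterByExpr (10 counts, a CPM of 0.326), leaving 19268 of 55487. A quasi-likelihood F test (edgeR 4.0.16, R 4.3.3) with TMM scaling fitted the 4 group means over all 31 libraries, and 5 contrasts were adjusted by Benjamini-Hochberg over all tested genes with a threshold of 0.05. CPM are TMM-scaled. The fit was tested on simulated data. Samples were grouped by the genotype and treatment labels, all columns were mapped to samples, and replicate numbers follow accession order. Alternatives were DESeq2 1.42.0, limma 3.58.1 (voom, and log2(TPM + 1)), library totals, other filters, the animal number range, and leaving out libraries. Gene coordinates come from GENCODE M21 on GRCm38, and promoters from RefSeq on GRCm38.p6.

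The text names every tested MHC gene, fixed partners (B2m, Tap1, Tapbp, Nlrc5, Cd74, Ciita, Ctss) and up to 4 genes per other list, those with the smallest p in WT. Members and lists were chosen with earlier results of these data known. The alternatives that leave out libraries standing apart, or single libraries from lists, their named genes and correlations, were chosen after seeing the data.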

Additional observations from a re-analysis of the deposited data

Results flagged for a closer look

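In 12 of 96 groups of 7 or 8 libraries examined for the 24 tested genes, 1 library lay far from the rest of its group, measured by its gap to the nearest value as a share of the range. The cutoff would flag about 1 in 20 groups of independent, normally distributed values. CPM of genes that vary together need not meet these conditions, so the count is not a test against chance. Every flagged value was the highest of its group. The flagged class II values were H2-Aa at 73 CPM in HET PBS 2 (next 58.3), H2-Ab1 at 68.4 (next 54.3) and H2-Eb1 at 58.3 (next 48.9) in WT PBS 4, and H2-Oa at 0.846 in WT PBS 5 (next 0.386). All 4 are high values under PBS. The class I values were H2-Q6 at 32.2 CPM in WT PBS 4 (next 24.8), H2-K2 at 5.74 in WT PBS 5 (next 2.44), H2-Q5 at 3.24 (next 2.37) in HET PBS 2 and H2-Bl at 0.568 in HET PBS 1 (next 0.267). Under cisplatin they were H2-Q10 at 5.31 CPM in WT cisplatin 6 (next 1.6), H2-T24 at 2.67 in WT cisplatin 3 (next 1.65) and H2-Bl at 0.271 in HET cisplatin 2 (next 0.128). H2-Ke6 was flagged at 45.5 CPM in WT PBS 6 (next 41.5), 1 of the libraries whose Nbl1 goes against the label.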

How the results depend on the processing

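The number of class II genes called lower stayed within 1.5 times of the reported one under the alternatives run. The class II gene H2-DMb1 was called higher in HET with library totals and with limma on log2(TPM + 1), and H2-DMa turned direction as given below. Class I counts moved more. With library totals, which shift the median of all genes to 0.45 in WT and 0.46 in HET and the share of calls that are higher from 53.1% to 80.5% in WT and from 52.6% to 83.3% in HET, 5 class I genes were higher in WT, and 6 higher and 3 lower in HET. With log2(TPM + 1) 5 were higher and 5 lower in WT, and 6 higher and 3 lower in HET. Within animals numbered in the 600s, 5 were lower in WT. In HET 5 were higher with limma voom and 5 without the 3 libraries that stand apart, and 4 were lower without the 5 libraries whose Nbl1 goes against the label. With library totals the class I loading list had 11 higher and 1 lower in WT and 13 and 1 in HET, the class II loading list 6 higher in WT and 6 in HET, and the interferon gamma list 5 higher and 6 lower in WT and 12 higher in HET. The interferon gamma list had 7 lower in HET by DESeq2, 8 without the 3 libraries, and 1 to 8 when single libraries were left out, with 8 without HET cisplatin 6.

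Direction changed for H2-M3 in WT (0.03 with library totals, 0.04 with TPM), H2-Q4 in WT (0.38 with each), H2-DMa in WT (0.08 with TPM) and H2-Q5 in HET (0.16 with TPM), and the scaling of these alternatives differs by construction. Leaving out each library in turn gave 2 to 3 class I genes higher and 7 to 8 lower in WT, 2 to 4 and 5 to 7 in HET, and 6 to 7 class II genes lower in WT and 5 to 6 in HET. Genotype and interaction calls among the MHC genes were 0 in each of these fits. No paired analysis was possible because the labels carry no replicate numbers shared between groups. At 24650000 counts or more per library, 18 genes had too few counts to be tested, 9 of them none.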
